A study of Mus musculus with 4 samples.

Results

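The genes described here are the Wnt ligands, their receptors and the secreted proteins that hold Wnts back, with 2 transcriptional targets of the pathway. The list was set by gene symbol. The list holds 19 Wnt genes, 8 Frizzled genes, the co-receptor genes *Lrp5*, *Lrp6*, *Ror1* and *Ror2*, 8 genes of secreted inhibitors (Sfrp, Dkk and Wif1) and the targets *Axin2* and *Lef1*. The Frizzled genes *Fzd3* and *Fzd6* and the inhibitor genes *Frzb* and *Dkk4* were not in it, and are counted with further pathway genes below. All 41 genes were on the array, with 61 of its 41174 probes, out of 18322 genes that had a name. A Wnt protein binds a Frizzled together with a co-receptor. In the canonical branch, with LRP5 or LRP6, this stops the destruction of beta-catenin, which then acts with TCF and LEF factors on target genes, whereas ROR receptors serve branches that do not need beta-catenin. In the embryonic midbrain, Wnt1 is known for its role at the isthmus and in dopaminergic progenitors, and Wnt5a for its role in the morphogenesis of the ventral midbrain.

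RNA came from dissected E12.5 midbrain tissue that held the mesodiencephalic dopaminergic (mdDA) area and the retromammillary tegmentum. Homozygous *Lmx1a-dr/dr* embryos carry the dr-J point mutation of the LIM homeodomain gene *Lmx1a* in all cells, on a C57Bl/6J background, and were compared with *Lmx1a*+/+ littermates. Each of 4 dr/dr samples (replicates a to d) was a pool of 5 midbrains, and each was hybridized on its own 2-colour array against a single wild-type pool made from 20 midbrains. Cy3 labelled the mutant RNA on arrays a and c, and Cy5 on arrays b and d. Values below are log2 ratios, with the dr/dr sample over that pool, so that 0 is no difference. Background was not subtracted, so ratios of dim spots are drawn toward 0. Percentages of the pool and their intervals thus refer to spot signal and do not bound the change in RNA. Variation between wild-type litters entered no test, since their RNA was pooled. Because whole tissue was measured, fewer cells of a type and less RNA per cell cannot be told apart.

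*Lmx1a* itself gave log2 ratios of -0.46 and -0.39 with dr/dr in Cy3 (arrays a and c) and of -0.75 and -0.84 with dr/dr in Cy5 (arrays b and d), and it fell to 65.5% of the pool by the permutation F2 test described below. The allele is a point mutation, so this level alone does not check the genotype labels. Median intensities were 137.4 to 174.2 in Cy5 and 70.0 to 84.7 in Cy3, and 78.2% to 98.9% of probes exceeded local background. The orientation of the dyes left a mark on these arrays. Ratios of 2 arrays with the same orientation correlated at 0.64 and 0.58 across probes, and ratios of arrays with opposite orientation at -0.34 to -0.29, so each gene was fitted with a dye term and is given array by array. All 10 midbrain and isthmus markers were above background, with a median of -0.03, 6 below 0 and 4 above. Only *Th* (-0.55) was called by the F2 test. *En1* was lower on all 4 arrays (-0.48) and *Otx2* higher on all 4 (0.20), neither of them called. Of 6 hindbrain markers, 4 exceeded background on every array, and *Hoxb1* and *Hoxb2* did not. The 6 had a median of -0.01 with 4 below 0, 2 above and 0 called, and *Gbx2* (-0.22) was lower on all 4 arrays. Of 6 roof plate and choroid plexus markers, 5 exceeded background on every array. The sixth, the choroid plexus gene *Ttr*, exceeded it on 0 of 4 arrays in dr/dr and on 2 of 4 in wild-type RNA.

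None of the 41 genes was called higher or lower by the F2 test or by limma on mean spot signals, and 3 of them (*Wnt8b*, *Wnt9a* and *Lef1*) were called by limma under an alternative, the median spot signal. The permutation F2 test of the study's methods, which takes a family-wise p under 0.05 over all probes, called 0 of the 61 member probes, whereas it called 0.508% of all named genes (93 of 18322, 66 lower and 27 higher) and 0.277% of probes. At that background share, 0 calls among 41 genes is no sign that these genes were unchanged. limma, with Benjamini-Hochberg adjustment over all probes, called 0 members and 0% of probes. At an unadjusted limma p under 0.05, 5 members were lower (*Wnt7b*, *Wnt8b*, *Wnt9a*, *Wif1* and *Fzd2*), which is 12.2% of the list against 10.4% of all genes. There were 3 on the higher side (*Lef1*, *Fzd1* and *Sfrp2*), which is 7.32% against 7.9%. In either direction the 8 genes make up 19.5% of the list, beside 18.3% of all genes, and each share lies close to the background. The median log2 ratio of the members was -0.00061, beside -0.0043 over all genes, and the median size of the ratio was 0.058 beside 0.052. The SD over genes of the fitted ratio was 0.12 among the members and 0.11 among all genes.

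**Figure D1:**
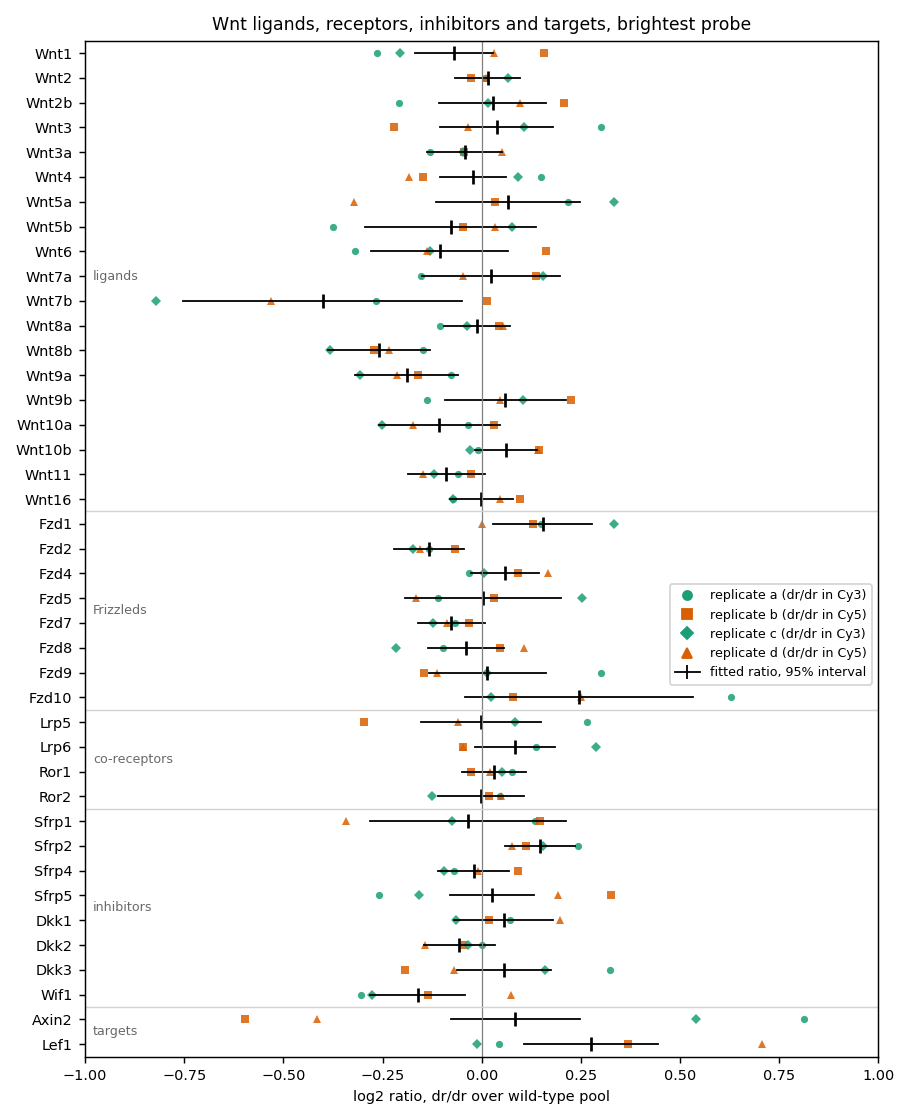
Log2 ratio of dr/dr over the wild-type pool (horizontal axis) for the brightest probe of each of the 41 genes, grouped by role. Symbols are the 4 arrays, green where dr/dr was in Cy3 and orange where it was in Cy5, and the black bar is the limma estimate with its 95% interval. *Wnt7b* lies lowest at -0.40 and *Lef1* highest at 0.28, and 33 of the 41 genes have arrays on both sides of 0.

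A ratio of the same sign on all 4 arrays was found for 8 members (19.5%, beside 15.7% of all genes). The lower ones were *Wnt8b*, *Wnt9a*, *Wnt11*, *Fzd2* and *Fzd7* (12.2% of members, beside 9% of all genes), and the higher ones *Fzd1*, *Fzd10* and *Sfrp2* (7.32%, beside 6.74%). For 13 members (31.7%, beside 33.4% of all genes) the sign of the ratio followed the dye instead, with both Cy3 arrays on one side of 0 and both Cy5 arrays on the other. With median centring of each array in place of loess, 2 of the 8 kept one sign on all arrays, *Wnt8b* and *Wnt9a*. With 4 ratios, an exact sign-flip test of a single gene cannot give a 2-sided p below 0.125. A size of 0.25 or more was reached by 3 members, *Wnt7b*, *Wnt8b* and *Lef1*, and by 3.68% of all genes.

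The ligands had ratios between -0.40 and 0.07, with a median of -0.02. Of the 19, 12 were below 0 (63.2%, beside 52.8% of all genes) and 7 above. On all 4 arrays 3 were lower (15.8%, beside 9% of all genes) and 0 higher (beside 6.74%). *Wnt8b*, a ligand gene known from the dorsal and caudal forebrain, gave -0.15 and -0.38 with dr/dr in Cy3 (a and c) and -0.27 and -0.23 with dr/dr in Cy5 (b and d). All 4 samples thus lay below the pool, and the means of both orientations nearly coincided at -0.27 and -0.25. Its log2 ratio was -0.26 (SE 0.049, n = 4, 95% interval -0.39 to -0.13), or 83.6% of the pool, with a limma adjusted p of 0.126. Only 3.33% of genes had a ratio of larger size by their brightest probe. The call turned on the choice of spot summary, since with the median in place of the mean signal of each spot limma gave -0.26 with an adjusted p of 0.0179. That setting called 7.76% of all genes, and 3 of the 41 members.

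The second of those 3 was *Wnt9a*, a ligand gene best known from joint formation. Its brightest probe gave -0.08 and -0.31 (arrays a and c) and -0.16 and -0.21 (b and d), again with every sample below the pool. The fitted log2 ratio was -0.19 (SE 0.049, 95% interval -0.32 to -0.06) with a limma adjusted p of 0.176, and -0.21 with an adjusted p of 0.0261 from the median spot signal. A second probe of *Wnt9a* of similar brightness stayed between -0.04 and 0.02 on the 4 arrays, with a mean of -0.01, so the lower value rested on 1 of 2 probes. *Wnt11*, a ligand gene of convergent extension movements, had smaller ratios of -0.06 and -0.12 (a and c) and -0.03 and -0.15 (b and d), with a log2 ratio of -0.09 (SE 0.036, limma adjusted p 0.323).

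The windows upstream of *Wnt8b* and *Wnt11* are printed because both ligands lay below the pool on all arrays and these windows hold a letter motif that was searched for. RefSeq windows (build GRCm38.p6), 250 bases before to 50 after a start, were found for 30 of the 41 genes, 36 windows in all. TAATTA, the core that many homeodomain proteins prefer and its own reverse complement, occurred in 5.29% of 32851 windows and in 1 of the 36, that of *Wnt8b*. CTTTGAT, a TCF/LEF motif whose other strand reads ATCAAAG, occurred in 3.73% of all windows and in 2 of the 36, those of *Wnt11* and *Wnt5b*. Neither printed window held both motifs, so no matches overlap. The first line covers chr19:44493222-44493471 on the plus strand with TAATTA in capitals, which begins 36 bases before the start. The second covers chr7:98834862-98835111 on the plus strand with ATCAAAG in capitals, which begins 51 bases before the start.
Wnt8b: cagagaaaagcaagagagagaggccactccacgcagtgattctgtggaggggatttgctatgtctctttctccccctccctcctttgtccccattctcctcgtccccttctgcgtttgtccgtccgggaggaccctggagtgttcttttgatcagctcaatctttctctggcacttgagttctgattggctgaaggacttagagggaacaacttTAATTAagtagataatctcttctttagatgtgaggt
Wnt11: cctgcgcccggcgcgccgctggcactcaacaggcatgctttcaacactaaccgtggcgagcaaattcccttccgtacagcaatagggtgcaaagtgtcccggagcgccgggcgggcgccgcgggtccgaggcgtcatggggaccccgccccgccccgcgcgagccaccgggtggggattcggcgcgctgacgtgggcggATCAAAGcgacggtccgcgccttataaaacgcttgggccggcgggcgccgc
A match of letters is a description of the window, and binding was not measured here.

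*Wnt7b*, which acts with *Wnt7a* on vessels of the neural tube, had the lowest ratio of the list and one of the widest spreads. Its brightest probe gave -0.27 and -0.82 (a and c) and 0.01 and -0.53 (b and d). Arrays c and d were far below the pool, array a less so, and array b was level with it. Over the 4 arrays the log2 ratio came to -0.40 (SE 0.133, 95% interval -0.75 to -0.05), or 75.7% of the pool, with a limma adjusted p of 0.246. It was -0.26 without replicate c and -0.26 without replicate d. A second, dimmer probe gave -0.09, a difference of 0.31 between probes. Endothelial and pericyte markers, of which 10 were measured, had a median of -0.06 with 9 of 10 below 0 and 0 called. That is 90% below 0, beside 52.8% of all genes, but 0 of the 10 were lower on all 4 arrays. By array, their median was -0.25 and 0.03 (a and c) and 0.01 and 0.03 (b and d), so array a alone was low. Their raw summed intensity ran from 1147 to 2452 in dr/dr and from 1099 to 2935 in wild-type RNA over the 4 arrays and both dyes, with all 10 above background. Their part in the value of *Wnt7b* was not tested. *Wnt7a* gave 0.02.

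*Wnt1*, the ligand gene of the isthmus and the dopaminergic progenitors, gave -0.26 and -0.20 with dr/dr in Cy3 (a and c) and 0.16 and 0.03 with dr/dr in Cy5 (b and d). The sign of the ratio followed the dye. With the dye term the estimate was -0.07 (SE 0.037), and the 95% interval of -0.17 to 0.03 corresponds to 89.0% to 102% of the pool, with a limma adjusted p of 0.434. *Wnt5a*, a ligand gene of the ventral midbrain that mostly signals without beta-catenin, gave 0.22 and 0.33 (a and c) and 0.03 and -0.32 (b and d). Only array d lay below the pool. The log2 ratio was 0.07 (SE 0.069, 95% interval -0.12 to 0.25, limma adjusted p 0.721), and it turned to -0.024 without replicate b and was 0.15 without replicate d. A second, dimmer probe of *Wnt5a* gave -0.05.

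*Wnt10a*, a ligand gene of teeth and skin appendages, gave -0.03 and -0.25 (a and c) and 0.03 and -0.17 (b and d). As for *Wnt7b*, arrays c and d were the lower ones and array b the highest. Its log2 ratio was -0.11 (SE 0.058, limma adjusted p 0.444). Another 7 ligand genes that exceeded background on all arrays in both channels (*Wnt2b*, *Wnt3*, *Wnt4*, *Wnt5b*, *Wnt6*, *Wnt7a* and *Wnt9b*) lay between -0.11 and 0.06. The remaining 5 were dim. *Wnt2* exceeded background on 2 of 4 arrays in dr/dr and 1 of 4 in wild-type RNA, *Wnt3a* on 3 and 3, *Wnt8a* on 3 and 2, *Wnt10b* on 4 and 2, and *Wnt16* on 4 and 3. Their ratios of -0.04 to 0.06 came from spots at or near background.

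Several Wnt genes lie next to each other, with 0 protein-coding genes between them in the RefSeq order. *Wnt6* and *Wnt10a* on chromosome 1 had the same fitted ratio of -0.11 by their brightest probes. Their arrays differed, with -0.32 for *Wnt6* and -0.03 for *Wnt10a* on array a, and a second, dimmer *Wnt6* probe gave -0.05. The other pairs were *Wnt1* (-0.07) with *Wnt10b* (0.06) on chromosome 15, and on chromosome 11 *Wnt3* (0.04) with *Wnt9b* (0.06) and *Wnt3a* (-0.04) with *Wnt9a* (-0.19). Although *Lmx1a* also lies on chromosome 1, 0 of the 41 genes fell among the 200 genes on either side of it.

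The 8 Frizzled genes of the list, which encode membrane receptors of Wnts, had a median of 0.01 and a range from -0.13 to 0.25. All of them exceeded background on all arrays. Of the 8, 2 were lower on all 4 arrays (25%, beside 9% of all genes) and 2 higher (25%, beside 6.74%). With median centring in place of loess, no Frizzled gene kept one sign on all arrays. *Fzd10* gave 0.63 and 0.02 (a and c) and 0.08 and 0.25 (b and d). The high mean came largely from array a. The fitted log2 ratio was 0.25 (SE 0.109, 95% interval -0.04 to 0.53, limma adjusted p 0.356), and it was 0.09 without replicate a and 0.40 without replicate c. A second, much dimmer probe gave 0.04.

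*Fzd1* gave 0.15 and 0.33 (a and c) and 0.13 and 0.0013 (b and d). Array d was level with the pool and the others above it, for a log2 ratio of 0.15 (SE 0.047, 95% interval 0.03 to 0.28, limma adjusted p 0.223). *Fzd2* had tightly grouped ratios by its brightest probe, -0.13 and -0.17 (a and c) and -0.07 and -0.16 (b and d), all below the pool. Over the 4 arrays the log2 ratio came to -0.13 (SE 0.033, limma adjusted p 0.17), or 91.2% of the pool. The second *Fzd2* probe, also above background, had the opposite sign at 0.13, with arrays from -0.39 to 0.48, and the mean over both probes was -0.0004. For *Fzd7* both probes gave the same value of -0.08 and -0.07, with the brighter one lower on all 4 arrays (-0.12 to -0.03). *Fzd4*, *Fzd5*, *Fzd8* and *Fzd9* lay between -0.04 and 0.06.

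**Figure D2:**
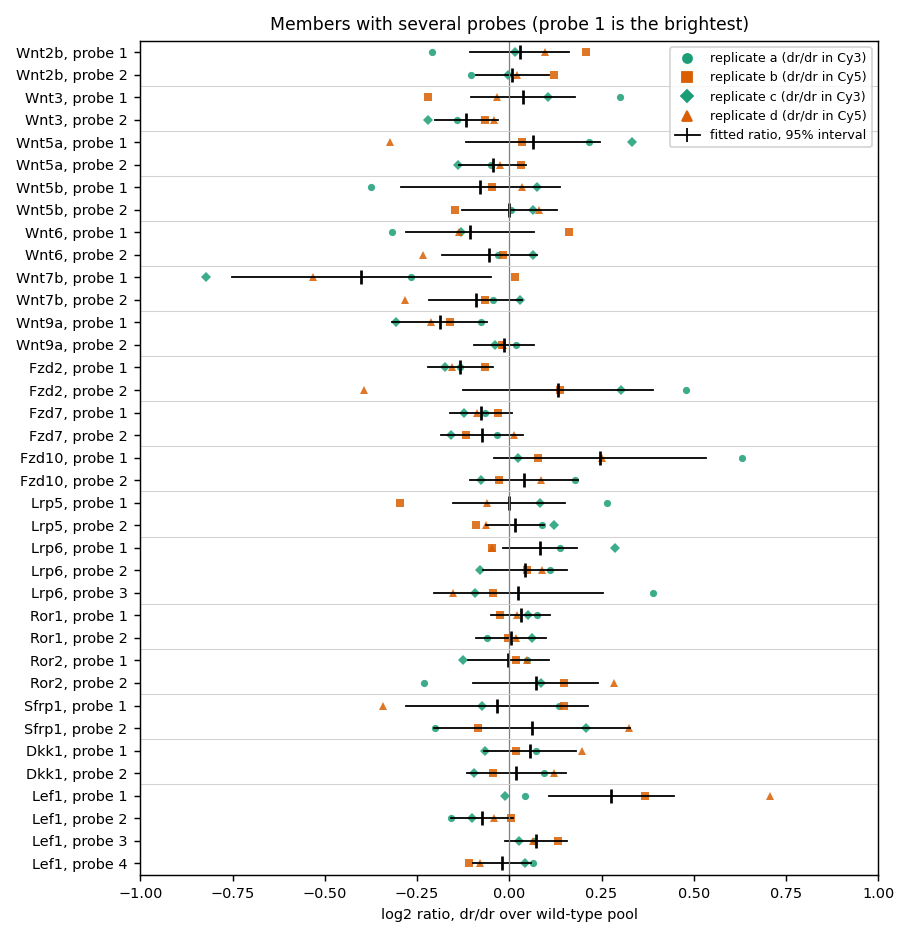
Log2 ratio of dr/dr over the wild-type pool (horizontal axis) for every probe of the 17 genes that have several, with probe 1 the brightest. Symbols are the 4 arrays by dye orientation, and bars are limma estimates with 95% intervals. In *Lef1* and *Wnt7b* the brightest probe stands 0.35 and 0.31 away from the farthest other probe, while both *Fzd7* probes lie at -0.08 and -0.07.

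The co-receptor genes had the narrowest range, from -0.0024 to 0.08. *Lrp6*, whose product carries the canonical signal with a Frizzled, gave 0.14 and 0.29 with dr/dr in Cy3 (a and c) and -0.05 and -0.05 with dr/dr in Cy5 (b and d), so its sign followed the dye. Its log2 ratio was 0.08 (SE 0.038, limma adjusted p 0.371), and its other 2 probes, both dimmer, gave 0.04 and 0.02. *Lrp5* (-0.0019) and *Ror2* (-0.0024) stood at the level of the pool. *Ror1* (0.03) exceeded background on 3 of 4 arrays in dr/dr and 2 of 4 in wild-type RNA.

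The secreted inhibitors bind Wnts (Sfrp proteins and WIF1) or occupy LRP5 and LRP6 (DKK1 and DKK2). Of the 8 genes, 4 were below and 4 above 0, with a median of 0.0024. *Wif1* gave -0.30 and -0.28 with dr/dr in Cy3 (a and c) and -0.14 and 0.07 with dr/dr in Cy5 (b and d). Array d stood above the pool and the other 3 below it. Averaged over both orientations the log2 ratio was -0.16 (SE 0.045, 95% interval -0.28 to -0.04, limma adjusted p 0.198), or 89.4% of the pool. *Sfrp2* gave 0.24 and 0.16 (a and c) and 0.11 and 0.08 (b and d), with every sample above the pool. The log2 ratio was 0.15 (SE 0.033, 95% interval 0.06 to 0.23, limma adjusted p 0.148), or 111% of the pool, and it was 0.09 with the median spot signal. The other inhibitor genes, *Sfrp1*, *Sfrp4*, *Sfrp5*, *Dkk1*, *Dkk2* and *Dkk3*, lay between -0.06 and 0.06.

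*Axin2* and *Lef1* are read as outputs of the canonical branch. AXIN2 is a scaffold of the complex that destroys beta-catenin and acts as feedback, and LEF1 is a partner of beta-catenin on DNA. *Axin2* gave 0.81 and 0.54 with dr/dr in Cy3 (a and c) and -0.60 and -0.42 with dr/dr in Cy5 (b and d). The arrays of one orientation were far above the pool and those of the other far below it. The dye effect was -0.59, and only 1.03% of all genes had one of larger size. With the dye term the log2 ratio was 0.09 (SE 0.062, 95% interval -0.08 to 0.25), which corresponds to 94.7% to 119% of the pool, with a limma adjusted p of 0.581.

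*Lef1* gave 0.04 and -0.01 with dr/dr in Cy3 (a and c) and 0.37 and 0.71 with dr/dr in Cy5 (b and d) by its brightest probe. The excess was on the Cy5 arrays, and the Cy3 arrays were level with the pool. Its log2 ratio was 0.28 (SE 0.064, 95% interval 0.11 to 0.45), or 121% of the pool, with a limma adjusted p of 0.154. With the median spot signal it was 0.25 with an adjusted p of 0.0139, the third of the members called by limma under that setting. The 3 dimmer *Lef1* probes gave -0.07, 0.07 and -0.02, and the mean over all 4 probes was 0.06. Of these, only the probe at -0.07 exceeded background on all arrays in both channels. The probe at 0.07 exceeded it on 4 of 4 arrays in dr/dr and 3 of 4 in wild-type RNA, and the probe at -0.02 on 1 and 1. The value for *Lef1* thus depended on the probe read, but spots near background limit what the dimmest probes and that mean can show.

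**Figure D3:**
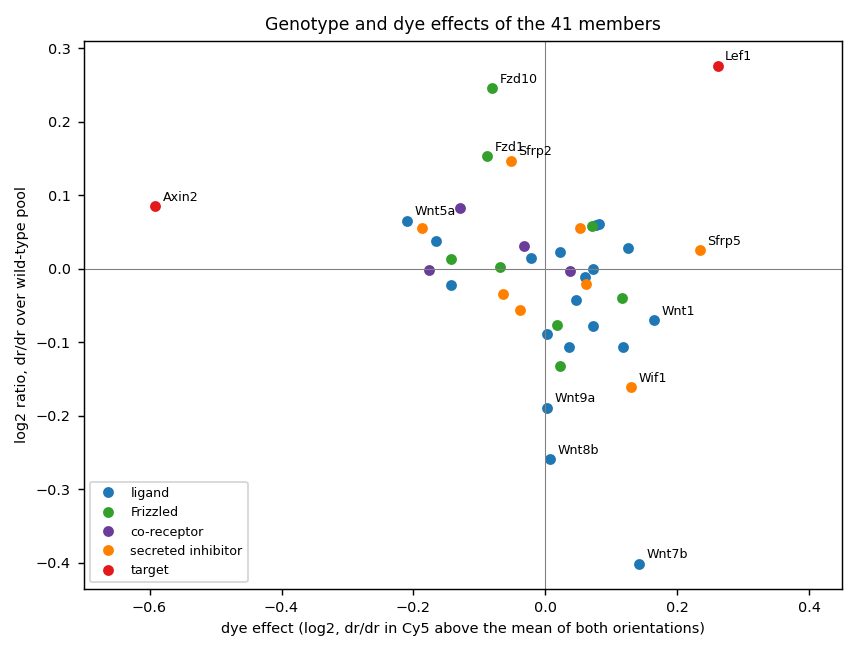
Fitted log2 ratio of dr/dr over the wild-type pool (vertical axis) against the dye effect (horizontal axis, log2, the mean ratio of the Cy5 arrays minus the mean of both orientations) for the brightest probe of the 41 genes, coloured by role. *Axin2* stands apart at a dye effect of -0.59, whereas *Wnt8b* and *Wnt9a* have ratios of -0.26 and -0.19 at dye effects of 0.01 and 0.0026.

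A further 49 genes of the pathway, all measured, were read: R-spondins and their receptors, Dishevelleds, the destruction complex, TCF factors, processing of Wnts, feedback genes and targets. They also hold receptors and secreted inhibitors outside the list, such as *Fzd3*, *Fzd6*, *Ryk*, *Frzb*, *Dkk4*, *Kremen1* and *Sost*. Of the 49, 1 fell and 0 rose by the permutation F2 test, beside the 0.508% of all genes called. The gene that fell was *Rspo2*, a secreted activator that raises the number of Frizzled and LRP6 receptors at the cell surface. It gave -0.99 and -1.01 (a and c) and -1.18 and -1.38 (b and d), and its log2 ratio of -1.14 (SE 0.044) is 45.4% of the pool. A second, dim *Rspo2* probe, above background on 2 of 4 arrays, gave -0.06. The largest ratio in size among the 41 genes was that of *Wnt7b*, -0.40.

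At an unadjusted limma p under 0.05, 11 of the 49 were lower (22.4%, beside 10.4% of all genes) and 4 higher (8.16%, beside 7.9%). Lower on all 4 arrays were 7 (14.3%, beside 9% of all genes), and higher on all 4 were 2 (4.08%, beside 6.74%). Among genes that did not pass the F2 test, the R-spondin gene *Rspo3* stood at -0.46 by its brightest probe, and its other 3 probes, none of them above background on all arrays in both channels, gave -0.05 to -0.0082. The R-spondin receptor gene *Lgr4* stood at 0.33, with a second probe, also above background, at 0.17. Its remaining probes, at 0.05 and 0.02, did not exceed background on all arrays in both channels. The values of *Rspo3* and *Lgr4* thus differed by probe, and those nearest 0 came from spots at or near background. The Wnt acyltransferase gene *Porcn* stood at -0.20, and the Wnt export gene *Wls* at 0.10, 0.20 and 0.03 by its 3 probes. For the destruction complex, the kinase gene *Gsk3a* stood at -0.44 by its single probe, and *Gsk3b* at 0.28, with its other 4 probes between 0.08 and 0.29. *Dvl1*, which encodes a Dishevelled that relays the Frizzled signal, stood at -0.31, with a second probe at -0.17. The brightest probe of the TCF factor gene *Tcf7l2* stood at 0.31 (SE 0.096), with -0.07 and -0.49 in Cy3 (a and c) and 1.08 and 0.72 in Cy5 (b and d), so that arrays of opposite orientation lay on opposite sides of the pool. The other 6 *Tcf7l2* probes lay between -0.11 and 0.15. *Ctnnb1*, which encodes beta-catenin, gave 0.11 and 0.17 by its 2 brightest probes with the same split by dye. Its dimmest probe, also above background, was higher on all 4 arrays (0.10 to 0.47) at a log2 ratio of 0.27 (SE 0.053, limma adjusted p 0.132), without that split.

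Further targets of the canonical branch stood on both sides of 0. *Sp5* was lower on all 4 arrays (-0.44 to -0.11) with a log2 ratio of -0.24 (limma adjusted p 0.16), and *Lgr5* was higher on all 4 (0.09 to 0.19) with a log2 ratio of 0.15 (limma adjusted p 0.135), while its second, dim probe gave 0.0045. *Nkd1*, a feedback inhibitor gene, stood at -0.13, *Ccnd1* at 0.02 and *Notum* at -0.01. None of these targets passed the F2 test, *Axin2* and *Lef1* included.

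**Figure D4:**
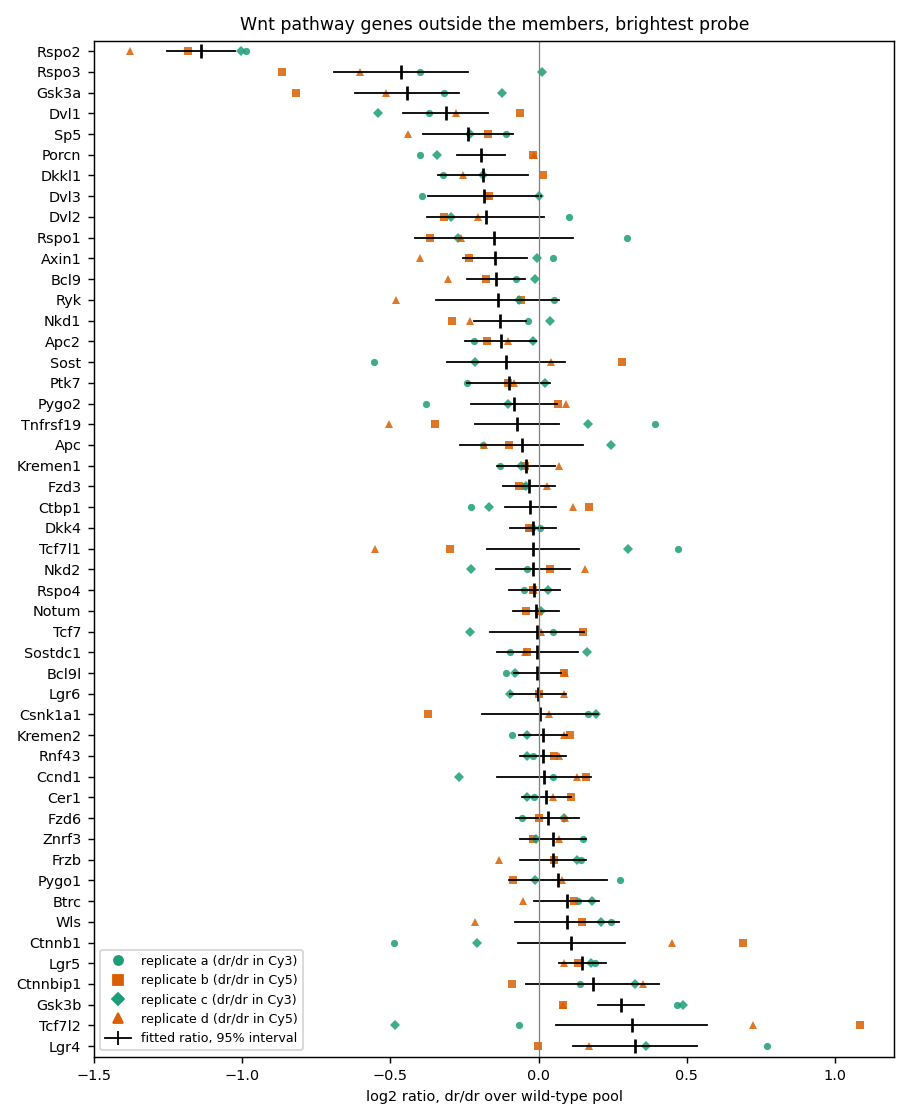
Log2 ratio of dr/dr over the wild-type pool (horizontal axis) for the brightest probe of 49 further Wnt pathway genes, ordered by the limma estimate, shown with its 95% interval. Symbols are the 4 arrays by dye orientation. *Rspo2* lies apart at -1.14 with all arrays between -1.38 and -0.99.

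Some ligands and inhibitors are also made by cells around the midbrain. Markers of meninges and mesenchyme, 8 of 8 above background, had a median of 0.06, with 6 above 0 and 0 called. *Lum*, a proteoglycan gene of connective tissue, was higher on all 4 arrays at a log2 ratio of 0.39 (limma adjusted p 0.105), above the highest ratio among the 41 genes. It gave 0.11 and 0.03 with dr/dr in Cy3 (a and c) and 0.58 and 0.83 with dr/dr in Cy5 (b and d), so most of the excess was on the Cy5 arrays. *Foxd1* (-0.09) and *Col1a2* (-0.01) were the 2 markers below 0. For 4 of the 8 markers (50%, beside 33.4% of all genes) the sign of the ratio followed the dye. The raw summed intensity of these 8 markers, over arrays of both dyes, ran from 891 to 1686 in dr/dr and from 809 to 2245 in wild-type RNA. Median intensity was higher in Cy5 than in Cy3 on every array, so such ranges take in the dye. The 5 forebrain markers measured had a median of 0.04 and none was called, with *Nkx2-1* at -0.22 and *Emx2* at 0.11. Their raw summed intensity over both dyes ran from 2664 to 6654 in dr/dr and from 2438 to 8473 in wild-type RNA. Roof plate and choroid plexus markers had a median of -0.04 over 6 genes with 0 called. The part of these cells in the values of *Wnt8b* or *Sfrp2* was not tested.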

How the data were processed

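The authors quantified the arrays (Agilent mouse whole genome, 2 colours) with ImaGene and deposited spot and background intensities per channel, not normalized. They also deposited a table of log2 ratios, for which mean intensities had been normalized by print-tip loess, used here as an alternative (r with the ratios below 0.964 to 0.982). Ratios were computed again from mean spot intensities, without background subtraction, by 1 loess curve per array (span 0.3, 4 iterations, limma 3.58.1, R 4.3.3) with 4046 control spots at weight 0. Of 45220 spots, 41174 were tested without a filter on dim probes. The platform annotation gave 1 symbol for 34186 probes and none for 6988.

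Calls came from the permutation F2 test of the methods (dye-only residuals shuffled 5000 times over all probes, 2-sided, family-wise p under 0.05), written in Python 3.11.15. A gene was called if any probe was. limma (lmFit, eBayes, dye term) gave ratios, moderated errors that leave out the dye effect, and adjusted p-values. Both were tested on simulated data. The brightest probe stood for a gene, and above background meant over the local mean plus 2 SD. Wnt1, Wnt5a, Axin2, Lef1 and the 6 highest and 6 lowest members above background are given array by array, and *Wnt11* and *Fzd7* were added after their values were seen. Members and lists were chosen with earlier results of these data known. The 4 arrays and the single wild-type pool limit the precision. Alternatives were normexp (offset 50), median centring, the median spot signal, the authors' table, dim probes removed, all probes, an intensity trend, no dye term and each array left out.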

Additional observations from a re-analysis of the deposited data

Results flagged for a closer look

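The ratio of *Ror2*, the co-receptor gene of a branch without beta-catenin, was -0.125 on replicate c, apart from 0.05 on a, 0.02 on b and 0.05 on d. Its gap to the nearest array was 0.830 of the whole range, just over Dixon's 95% limit for 4 samples. Such a value is met by chance in about 1 of 20 groups, and 1 of the 41 genes met it. Dye orientation differs among the other 3 arrays.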

How the results depend on the processing

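The F2 test called 0 of the 41 genes under every alternative run, although its count over all probes moved from 114 to 328 with the median spot signal and to 0 to 7 when 1 array was left out. limma called 0 probes in the fit reported, 3051 with the median spot signal, 399 with an intensity trend, 167 with median centring and 36 without dim probes. With the median spot signal it called *Lef1* (0.25), *Wnt8b* (-0.26) and *Wnt9a* (-0.21), and no member otherwise. The count of members with the same sign on all arrays, 8, was 2 with median centring (*Wnt8b* and *Wnt9a*, the only ones found under all of the 5 ways to compute ratios), 6 to 12 under the other ways and 11 to 14 when counted on the 3 arrays left (14 without replicate b), a count added after the data were seen. Of 147 alternative values for the 14 genes named by rule, 1 reversed, *Wnt5a* at -0.024 without replicate b. *Wnt1* was -0.04 without replicate d, *Wnt10a* -0.05 without replicate c, *Lrp6* 0.05 without replicate c, and *Axin2* 0.02 without replicate a and 0.15 without replicate c. The causes were not tested. No paired analysis was possible because the arrays hold 1 group against 1 pool. Spots near background limit what *Wnt2*, *Wnt3a*, *Wnt8a*, *Wnt10b*, *Wnt16* and *Ror1* can show.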
